A study of Mus musculus with 24 samples.

Results

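Iron and heme handling in the liver was followed through 9 genes, chosen by name. They were the hormone gene Hamp, the related gene Hamp2, the Hamp inducer Bmp6 and the transferrin receptors Tfrc and Tfr2. The others were the ferritin subunits Fth1 and Ftl1, the iron exporter Slc40a1 and the heme-degrading enzyme Hmox1. All 9 were found by that gene name among the 54733 genes of each table, and 8 of them reached a mean of at least 1 FPKM (fragments mapped to a gene, scaled by transcript length and library size) over all 24 libraries, as 11244 genes did. The remaining one, Bmp6, had a mean of 0.765 FPKM. The rule names the genes and applies no measured value, but it was drawn up with earlier results of these data known.

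The libraries were made from poly(A) RNA of livers of male C57BL/6 mice, WT or ΔRRE. ΔRRE mice lack, on both alleles, the pair of RREs (binding elements for the ROR activators and the REV-ERB repressors) of Bmal1, a core gene of the circadian clock; they came from 1 line edited with CRISPR-Cas9 in embryos. Mice of both genotypes were kept in constant darkness, and their livers were taken at circadian times (CT) 2, 6, 10, 14, 18 and 22, with 2 livers per genotype and time, that is 12 libraries per genotype. The sample labels give no age. The comparison asks how far the time courses and levels of these genes depend on rhythmic transcription of Bmal1.

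The liver is the organ that sets iron supply to the body. Hepatocytes sense transferrin-bound iron through transferrin receptor 2 and stored iron through BMP6, which comes from the sinusoidal endothelium, and answer by secreting hepcidin, the product of Hamp. Hepcidin binds ferroportin, the product of Slc40a1 and the only known cellular iron exporter, and causes its degradation, so that iron stays inside macrophages, enterocytes and hepatocytes. Within cells, iron regulatory proteins bind hairpins called iron-responsive elements in mRNAs: in a 5′ UTR they block translation, and in the 3′ UTR of Tfrc they protect the mRNA from decay.

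FPKM sums ranged from 554170 to 624746 per library, and 18869 to 20263 genes were above 0. Arntl (Bmal1), the edited gene, ranged from 0.0919 to 13.2 FPKM over the WT libraries and from 2.096 to 4.21 FPKM over the ΔRRE libraries, so its range was narrower in ΔRRE. All 6 hepatocyte markers, all 10 Kupffer cell markers and all 7 markers of sinusoidal endothelium had a mean of at least 1 FPKM in both genotypes. The 6 hepatocyte markers summed to between 34306 and 51599 FPKM per library, against 28.6 to 156 for the Kupffer cell markers. In bulk liver, fewer cells of a type and less RNA per cell cannot be told apart. Read counts per gene cannot be had from FPKM, so values carry no interval for counting error, and each group has 2 libraries. The spread in the wave tests also holds the distance of the time means from the fitted wave.

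Levels spanned more than 3 orders of magnitude within the 9 genes. Ftl1 was the most abundant, with a mean of 2302 FPKM and rank 44 of 54733 genes, followed by Fth1 with 1353 FPKM at rank 68 and Hamp with 1257 FPKM at rank 77. Tfr2 followed with 115 FPKM, then Hamp2 with 35.2, Slc40a1 with 25.2, Tfrc with 11.3, Hmox1 with 6.68 and Bmp6 with 0.765 FPKM. In this order Ftl1 lay above Fth1 and Hmox1 above Bmp6 in all 24 libraries without overlap of their ranges, while the ranges of the other neighbours overlapped, those of Hamp and Tfr2 through a single library. FPKM is scaled by transcript length, so these levels can be compared between genes, except where reads fit several genes. That limit holds for Hamp with Hamp2 and for Ftl1 with Gm22133, as given below.

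**Figure D1:**
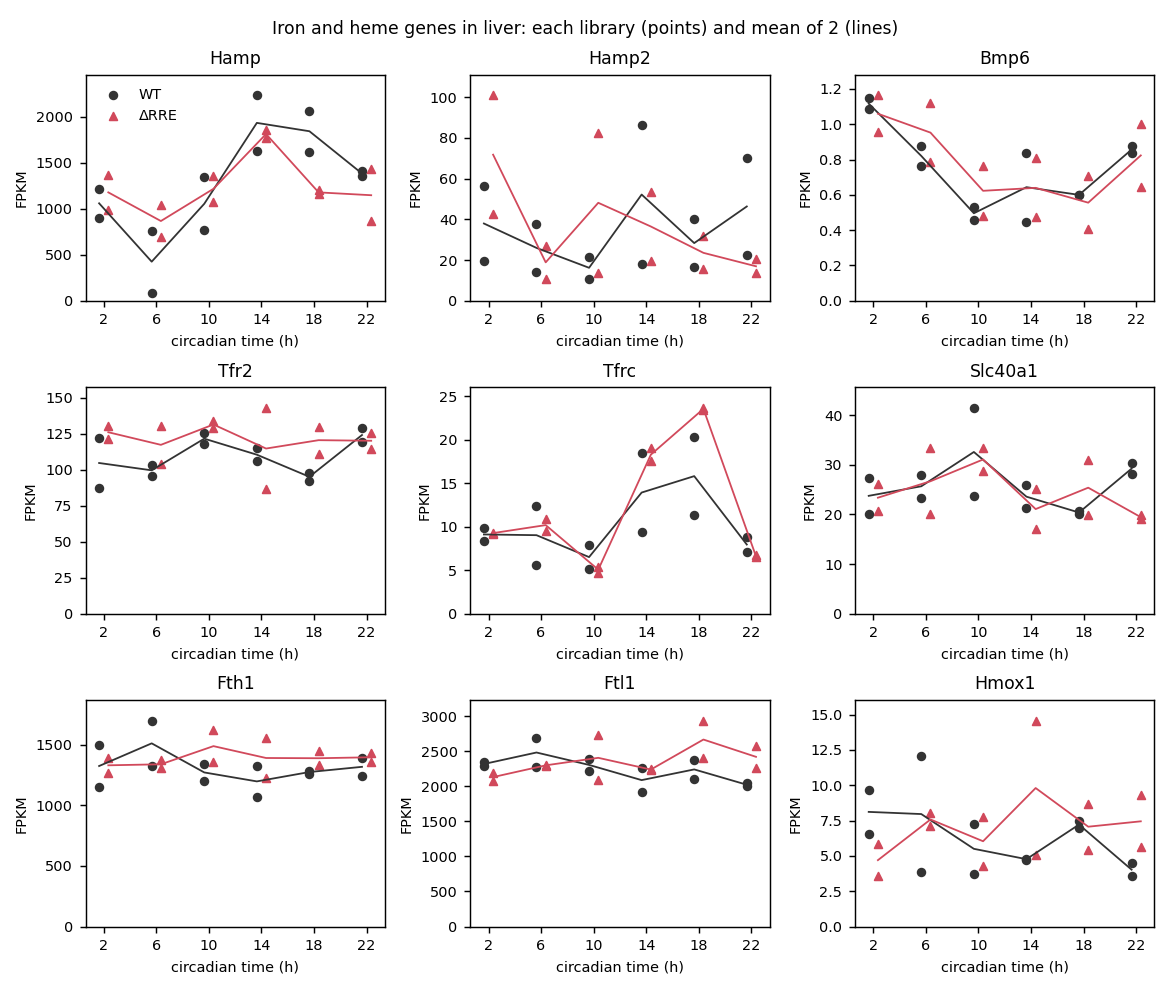
FPKM (y axis, from 0) of the 9 genes against circadian time in hours (x axis). Black circles are WT libraries, red triangles ΔRRE libraries, and lines join the means of 2 libraries per genotype and time. Hamp was highest at CT14 and lowest at CT6 by the mean in both genotypes, with 1 WT library at CT6 at 87.8 FPKM; Tfrc was highest at CT18 and lowest at CT10 in both; the replicates of Hamp2 lay far apart; and Tfr2, Fth1 and Ftl1 stayed within narrow ranges.

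Hamp, the hepcidin gene (ENSMUSG00000050440, chr7:30942368-30944032, minus strand), was the only one of the 8 tested genes called in the main tests of time and genotype. In WT, it was 1214 and 903 FPKM at CT2, 762 and 87.8 at CT6, 766 and 1340.3 at CT10, 2232 and 1629.7 at CT14, 2065 and 1616 at CT18, and 1357 and 1406 at CT22. In ΔRRE, it was 986 and 1368 FPKM at CT2, 692 and 1039.7 at CT6, 1357 and 1074 at CT10, 1767 and 1853 at CT14, 1198 and 1156 at CT18, and 1429.8 and 862 at CT22. In WT the 4 libraries of CT14 and CT18 all lay above the 8 others, whereas in ΔRRE only the pair at CT14 lay above all others. At CT18 both ΔRRE libraries were below both WT libraries, while at the 5 other times the genotypes overlapped. These windows and this time were picked after the values were seen and were not tested. The share of all genes that separate in this way was not computed.

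A wave with a period of 24 h was fitted to log2(FPKM + 0.1) with limma and p-values were adjusted over all 11244 genes (Benjamini-Hochberg). The amplitude is the distance from the middle of the fitted wave to its peak. The amplitude and peak given for a joint wave, here and below, are those of 1 wave shared by both genotypes. For Hamp that wave had an amplitude of 0.72 ± 0.21 (SE) on the log2 scale with a peak at CT17.1. The joint p comes instead from separate wave terms of each genotype, tested together, and for Hamp the adjusted p was 0.0369 (limma). This joint test called 1 of the 8 genes (12.5%), against 18.7% of all genes tested, so the share of called genes was not above the background. With no filter on low values, where 5.91% of 28380 genes were called, the adjusted p of Hamp was 0.0979 and none of the 9 genes was called. The Hamp call also rested on single libraries, since it was lost in 6 of the 24 fits that left out 1 library, with adjusted p-values of up to 0.0662 (limma). These were replicate 1 of WT at CT10, CT14, CT18 and CT22, replicate 2 of WT at CT14 and replicate 1 of ΔRRE at CT14.

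Within genotypes, the Hamp wave had an amplitude of 1.16 ± 0.33 (SE) in WT with a peak at CT17.6 and an adjusted p of 0.0889, and of 0.33 ± 0.13 in ΔRRE with a peak at CT15.2 and an adjusted p of 0.279 (limma, 12 libraries each). None of the 8 genes was called in WT, where 10.3% of all genes were, or in ΔRRE, where 4.57% were. The amplitude in WT depended on 1 library: without replicate 2 of CT6 it was 0.63 with an adjusted p of 0.0212. The difference between the waves had an unadjusted p of 0.0231 in the exact permutation test over all 46656 assignments of genotype within time points, in which 9 genes were tested and the smallest possible p is 4.29e-05. Without that library this p was 0.104, and across all genes limma gave an unadjusted p of 0.0820 and an adjusted p of 0.9999.

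The WT library at CT6 with 87.8 FPKM of Hamp was 8.67-fold below the other WT library of that time and 7.88-fold below the next lowest of all 24 libraries. Of 4 BMP target genes, Id1 was lowest in the same library, at 1.96 FPKM against 2.29 to 14.7 FPKM elsewhere. Counted from the lowest of the 24, the library ranked 2 for Atoh8, 5 for Smad7 and 9 for Smad6. Ncoa4, the receptor that delivers ferritin for degradation, was also lowest there, with 9.18 FPKM against 10.1 to 20.4 elsewhere. The library did not stand apart across the transcriptome: it held the lowest value for 405 genes and the highest for 220 of the 11244 tested, where the other libraries held the lowest for 196 to 1071. Its sums of hepatocyte markers (40442 FPKM) and of the 12 acute-phase genes (4610 FPKM) lay inside the range of the other libraries. The mean log2 level of the acute-phase genes was 5.38 there, against a median of 5.95 over all libraries. Saa3 was lowest there, at 2.77 FPKM against 3.52 to 12.8 elsewhere, as was Lcn2, at 2.62 against 2.86 to 205. From the lowest, the library ranked 2 for Hp, 7 for Saa1, 9 for Saa2, 14 for Fgg, 16 for Orm1 and 19 for Socs3. Whether any of these differences had a part in the Hamp value was not tested.

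Hamp2 (ENSMUSG00000056978, chr7:30922372-30924681, minus strand), which lies beside Hamp on the same strand and encodes a related peptide, had a median level of 1.84% of that of Hamp when this library was left out. Its values were dominated by differences between replicates. In WT they were 56.3 and 19.6 FPKM at CT2, 14.0 and 38.0 at CT6, 10.7 and 21.7 at CT10, 86.2 and 18.1 at CT14, 40.0 and 16.8 at CT18, and 70.2 and 22.5 at CT22. In ΔRRE they ranged from 10.8 to 101 FPKM, with both extremes in replicate 1, of CT6 and of CT2. Replicate 1 was higher than replicate 2 in 9 of the 12 groups. The SD between replicates was 1.08 on the log2 scale, against a median of 0.25 over all genes, and only 1.44% of genes had a larger one. No wave was called in Hamp2 (joint amplitude 0.17 ± 0.28 SE, adjusted p of 0.870, limma), and its levels did not follow those of Hamp across the 24 libraries (Pearson r = 0.156).

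The sequences before the RefSeq starts of both hepcidin genes are shown because the genes differ in level by more than 1 order of magnitude. They are the 250 bases before each RefSeq start (GRCm38.p6, minus strand), at chr7:30944030-30944279 for Hamp and chr7:30924182-30924431 for Hamp2, with matches to the BMP element GGCGCC and the STAT element TTCNNNGAA in capitals:
Hamp: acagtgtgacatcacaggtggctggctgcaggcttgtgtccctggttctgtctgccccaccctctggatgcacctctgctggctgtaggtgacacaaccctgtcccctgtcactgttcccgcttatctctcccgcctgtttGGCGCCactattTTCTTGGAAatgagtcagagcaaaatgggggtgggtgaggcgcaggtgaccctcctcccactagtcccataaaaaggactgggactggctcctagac
Hamp2: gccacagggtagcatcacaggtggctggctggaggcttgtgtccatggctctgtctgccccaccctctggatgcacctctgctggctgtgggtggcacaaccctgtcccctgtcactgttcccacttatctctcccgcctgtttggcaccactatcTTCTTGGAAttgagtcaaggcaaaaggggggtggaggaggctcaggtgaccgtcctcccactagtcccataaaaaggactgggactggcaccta

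By the GENCODE gene positions given above, the windows are not alike. That of Hamp begins at the edge of its gene, which ends at 30944032. That of Hamp2 lies wholly inside its gene, which reaches 30924681 on the minus strand. Of 253 aligned columns, 89.7% held the same base. Both hold a STAT element, 97 bases before the start in Hamp and 94 in Hamp2. The Hamp sequence also holds GGCGCC, 109 bases before the start, where the aligned bases of Hamp2 are GGCACC, a substitution of G145A counted from the first base printed. The first-named GENCODE transcripts of both genes are 92.6% identical with a longest shared run of 87 bases, so some reads could have been counted for either gene, and the level of Hamp2 is uncertain to that extent. Over all 32851 promoters of 300 bases in the table, on either strand, 11.9% hold GGCGCC and 8.30% hold TTCNNNGAA. A promoter was found for 7 of the 9 genes, and Slc40a1 and Hmox1 had none. That of Bmp6 (chr13:38345466-38345765) lies inside its GENCODE gene, which starts at 38345107. GGCGCC was also present in a promoter of Tfrc, the E-box CACGTG to which CLOCK and BMAL1 bind, held by 7.15% of promoters, in that of Bmp6 alone, and the AGGTCA element of nuclear receptors, held by 16.3%, in none of the 7. These are matches of letters and not measured sites.

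Bmp6 (ENSMUSG00000039004, chr13:38345107-38500302, plus strand), the ligand that induces Hamp, was low and highest around CT2 in both genotypes. In WT it was 1.09 and 1.15 FPKM at CT2, 0.876 and 0.765 at CT6, 0.533 and 0.458 at CT10, 0.448 and 0.838 at CT14, 0.599 and 0.601 at CT18, and 0.839 and 0.874 at CT22. In ΔRRE it was 0.954 and 1.16 FPKM at CT2, 0.785 and 1.12 at CT6, 0.482 and 0.764 at CT10, 0.472 and 0.807 at CT14, 0.705 and 0.406 at CT18, and 0.647 and 0.9998 at CT22. The WT libraries of CT2 lay above all other WT libraries, while the ΔRRE values of CT2 overlapped with those of CT6 and CT22. In the fit without a filter, the joint wave had an amplitude of 0.42 ± 0.10 (SE), a peak at CT2.07, an unadjusted p of 0.00729 and an adjusted p of 0.0885, so it was not called (limma). The fitted peak of Hamp was at CT17.1, and the Pearson r between both genes over the 24 libraries was -0.212. Over the same libraries, Bmp6 had an r of 0.556 with the mean log2 level of the 7 endothelial markers, which share libraries and scaling with it; the part of endothelial content in the Bmp6 time course was not tested.

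Tfr2 (ENSMUSG00000029716, chr5:137569840-137587481, plus strand), the iron sensor of hepatocytes, was flat over time. It ranged from 87.4 to 129 FPKM in WT, with a median of 110, and from 86.5 to 143 FPKM in ΔRRE, with a median of 127. Its mean was higher in ΔRRE at 5 of 6 times. Over all 11244 genes tested, the difference in mean level was above 0 for 7362, and it was called for 0%. The difference in mean level was 0.15 ± 0.08 (SE) on the log2 scale with a 95% interval of -0.004 to 0.31, an unadjusted p of 0.0556 and an adjusted p of 0.569 (limma), and a p of 0.0634 in the exact permutation test. The joint wave had an amplitude of 0.02 ± 0.06 and an adjusted p of 0.994 (limma).

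Tfrc (ENSMUSG00000022797, chr16:32608920-32632794, plus strand), the receptor through which most cells take up transferrin-bound iron, had in ΔRRE a mean at CT18 that was 4.66-fold that at CT10. In WT it was 9.88 and 8.32 FPKM at CT2, 12.4 and 5.61 at CT6, 5.08 and 7.92 at CT10, 18.5 and 9.36 at CT14, 11.4 and 20.3 at CT18, and 7.09 and 8.80 at CT22. In ΔRRE it was 9.31 and 9.21 FPKM at CT2, 9.46 and 10.9 at CT6, 5.41 and 4.70 at CT10, 17.5 and 19.0 at CT14, 23.4 and 23.6 at CT18, and 6.47 and 6.71 at CT22. In ΔRRE the 4 libraries of CT14 and CT18 averaged 20.9 ± 3.10 FPKM (SD) and lay above the 8 others, which averaged 7.77 ± 2.23 FPKM. In WT the same windows averaged 14.9 ± 5.32 and 8.14 ± 2.35 FPKM. They overlapped, since 2 of the 8 other libraries reached the lowest value of the window. As for Hamp, the windows were picked after the values were seen and were not tested.

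The call for Tfrc depended on the model of the time course. With a wave for each genotype it was not called, with amplitudes of 0.43 in WT and 0.65 in ΔRRE. The adjusted p was 0.176 in the joint test, 0.315 in WT and 0.249 in ΔRRE (limma). With time point as a factor, which allows the step from CT10 to CT14, the adjusted p was 0.000942 in ΔRRE, 0.402 in WT and 0.00638 for both genotypes together (limma). With 1 wave shared by both genotypes, still of 24 h, the adjusted p was 0.0416 (limma). That wave had an amplitude of 0.54 ± 0.16 (SE) and a peak at CT17.2. The difference between the genotypes was not called under any of the alternatives run that give one, and the exact permutation p for a difference in wave was 0.604 (0.23 on the log2 scale). Without replicate 2 of WT at CT6 the difference was 0.41 with an exact permutation p of 0.0796. By the criteria of the study, which combine a lenient p with a fold and a spread criterion, with the wave p in place of its own, Hamp and Tfrc qualified in WT, and Hamp, Tfrc and Slc40a1 in ΔRRE, where 37% and 35.4% of all genes qualified.

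Tfrc also had the transcript with the most matches to a pattern of hairpins of the iron-responsive kind. The loops are shown because hairpins of this kind are the sites by which iron sets Tfrc mRNA stability and ferritin and ferroportin translation. A search of the GENCODE M21 transcripts (GRCm38) asked for C, 5 bases, CAGTG, any base but G, and 5 bases that pair with the 5 before the loop (G with T allowed), on the transcript strand, in the first-named transcript of each gene. Each window of 30 bases is printed with the bulged C and the CAGTG in capitals, 4 from the 3′ UTR of Tfrc and 1 each from the 5′ UTRs of Fth1, Ftl1 and Slc40a1:
Tfrc, chr16:32631218-32631247 (+): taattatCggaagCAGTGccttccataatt
Tfrc, chr16:32631597-32631626 (+): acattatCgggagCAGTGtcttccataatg
Tfrc, chr16:32631662-32631691 (+): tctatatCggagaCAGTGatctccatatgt
Tfrc, chr16:32631709-32631738 (+): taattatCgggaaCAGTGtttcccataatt
Fth1, chr19:9982731-9982760 (+): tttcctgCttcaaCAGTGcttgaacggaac
Ftl1, chr7:45459779-45459808 (-): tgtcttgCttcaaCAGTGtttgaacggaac
Slc40a1, chr1:45925465-45925494 (-): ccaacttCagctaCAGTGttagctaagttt

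Of 21291 protein-coding transcripts searched, 174 (0.817%) held a match, 17 (0.0798%) held one in their first 200 bases, and that of Tfrc was the 1 transcript with at least 4. Those of Hamp, Hamp2, Bmp6, Tfr2 and Hmox1 held no match. The search misses hairpins that depart from the pattern, so the matches need not be all such elements of a transcript. The libraries measured mRNA and no translation, so the 5′ elements of Fth1, Ftl1 and Slc40a1 were not assayed here.

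Fth1 (ENSMUSG00000024661, chr19:9980598-9985098, plus strand) and Ftl1 (ENSMUSG00000050708, chr7:45457944-45459884, minus strand), the heavy and light subunits of ferritin, were the steadiest of the 8 genes. Fth1 ranged from 1072 to 1698 FPKM in WT, with a median of 1306, and from 1225 to 1619 FPKM in ΔRRE, with a median of 1367. Ftl1 ranged from 1917 to 2684 FPKM in WT, with a median of 2270.3, and from 2080.3 to 2934 FPKM in ΔRRE, with a median of 2280.1. Both were highest in WT at CT6 by the mean, and in the same library, replicate 1. The SD between replicates was 0.16 for Fth1 and 0.13 for Ftl1 on the log2 scale, and 81.5% and 91.2% of all genes had a larger one. The joint waves had adjusted p-values of 0.668 and 0.510 (limma). The ratio of Ftl1 to Fth1 lay between 1.43 and 2.03 in all 24 libraries, and their Pearson r was 0.627. Fth1 was higher in replicate 1 than in replicate 2 in 10 of 12 groups. It had an r of 0.615 with the mean log2 level of 6 erythroid markers over the 24 libraries, 0.424 in WT and 0.816 in ΔRRE, and 0.440 without the 2 libraries farthest from the median. The 2 highest ΔRRE values of Fth1, 1619 FPKM at CT10 and 1556 FPKM at CT14, came from the libraries with the highest erythroid sums, 4322 and 4451 FPKM. These sums ranged from 466 to 1537 FPKM in WT and from 537 FPKM in ΔRRE, and 5 of the 6 markers averaged at least 1 FPKM. The 2 libraries with the highest erythroid sums also held the highest acute-phase sums, 10661 and 12695 FPKM. Fth1 had an r of 0.749 in WT and -0.196 in ΔRRE with the hepatocyte markers. With the acute-phase genes r was -0.166 in WT and 0.589 in ΔRRE. The part of erythroid RNA or of these other marker sets in the Fth1 values was not tested. For Ftl1, the unadjusted permutation p for a difference in wave was 0.0675, and 0.0222 without replicate 2 of WT at CT6 (exact permutation test, 9 genes tested).

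The ferritin genes have close copies in the genome. Ftl1-ps1 had a median of 36.1 FPKM and Ftl2-ps of 14.7, little beside Ftl1. Gm22133, annotated as a miRNA, lies inside Ftl1 on the same strand (chr7:45458089-45458197) and was listed at a median of 4118 FPKM. In poly(A) libraries its reads cannot be told apart from those of Ftl1, so the level of Ftl1, its rank and its ratio to Fth1 are uncertain to that extent. Gm22133 was the gene most like Ftl1 across libraries, with a Pearson r of 0.755.

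Slc40a1 (ENSMUSG00000025993, chr1:45908068-45926523, minus strand), the exporter that hepcidin degrades, had no called time course. In WT it ranged from 20.01 to 41.4 FPKM with a median of 24.8, and in ΔRRE from 17.0 to 33.4 FPKM with a median of 22.9. Its mean was highest at CT10 in both genotypes, at 32.6 ± 12.5 FPKM (SD, n = 2) in WT and 31.1 ± 3.37 FPKM in ΔRRE, a time at which Tfrc was lowest. The joint wave had an amplitude of 0.17 ± 0.09 (SE) with a peak at CT8.10 and an adjusted p of 0.591 (limma). Across the 24 libraries its Pearson r was -0.458 with Tfrc and -0.344 with Hamp.

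Hmox1 (ENSMUSG00000005413, chr8:75093621-75100589, plus strand), which opens the heme ring and releases its iron, differed more between replicates than between times. In WT it ranged from 3.58 to 12.1 FPKM with a median of 5.68, and in ΔRRE from 3.57 to 14.6 FPKM with a median of 6.47. At CT6 in WT the replicates were at 12.1 and 3.85 FPKM, and at CT14 in ΔRRE at 14.6 and 5.04 FPKM. The SD between replicates was 0.59 on the log2 scale, and 7.10% of all genes had a larger one. No wave was called (adjusted p of 0.844 for the joint wave, limma).

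Hmox1 moved with markers of Kupffer cells, the liver macrophages that break down heme from old red cells. Its Pearson r with the mean log2 level of the 10 markers was 0.778 over the 24 libraries, Spearman's rho was 0.840, and r was 0.765 without the 2 libraries farthest from the median. Within WT r was 0.857 and within ΔRRE 0.745, over 12 libraries each. All 10 markers were detected, and r for single markers lay between 0.559 for Clec4f and 0.834 for Adgre1. Over all genes tested, Adgre1, which encodes the macrophage protein F4/80, was the one most like Hmox1, followed by Siglece with an r of 0.805. The markers summed to between 28.6 and 156 FPKM in WT and between 57.3 and 136 FPKM in ΔRRE. The points share library preparation and scaling, and the part of Kupffer cell content in the Hmox1 values was not tested. The ΔRRE library at CT14 with 14.6 FPKM of Hmox1 also had the highest sums of the acute-phase genes (12695 FPKM) and of the erythroid markers (4451 FPKM), and it held the highest value for 1082 of the 11244 genes. Within ΔRRE, Hmox1 had an r of 0.657 with the acute-phase genes, against 0.091 in WT, and their part was not tested either. For Slc40a1, which Kupffer cells also express, r with the same markers was -0.023.

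**Figure D2:**
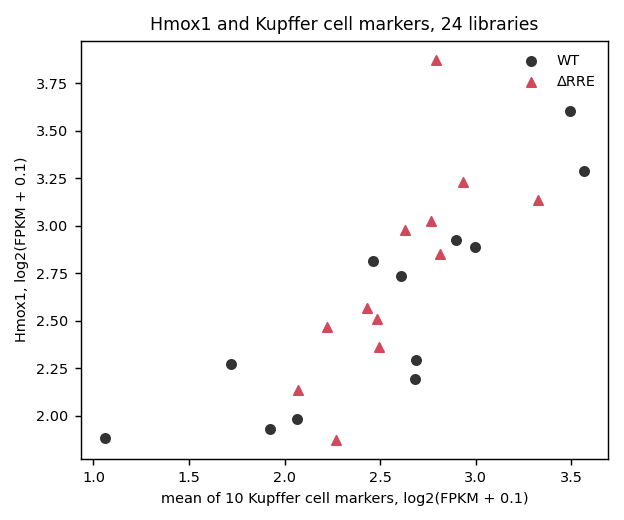
Level of Hmox1 (y axis) against the mean of the 10 Kupffer cell markers (x axis), both as log2(FPKM + 0.1), in the 12 WT (black circles) and 12 ΔRRE (red triangles) libraries. Hmox1 was higher where the markers were higher in both genotypes (r = 0.857 in WT and 0.745 in ΔRRE), and the highest Hmox1 value, 14.6 FPKM in ΔRRE at CT14, lay above the others of like marker level.

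None of the 8 genes was called by limma for a difference between WT and ΔRRE in mean level or in wave. For mean level, limma called 0 of 8, and 0% of all 11244 genes, with an unadjusted p under 0.05 for 0 of the 8 and for 1002 of all genes. For a difference in wave it called 0 of 8, against 0.00889% of all genes, with an unadjusted p under 0.05 for 0 of the 8 and for 319 of all genes. The differences in level, ΔRRE minus WT on the log2 scale, lay between -0.08 for Slc40a1 and 0.18 for Hmox1. The intervals show what the libraries could resolve. They were narrow for Ftl1 (-0.06 to 0.21) and Fth1 (-0.06 to 0.22), wider for Slc40a1 (-0.33 to 0.16) and Tfrc (-0.17 to 0.44), and widest for Hmox1 (-0.28 to 0.65), Hamp (-0.39 to 0.76) and Hamp2 (-0.81 to 0.78). The exact permutation p-values for the level of the 9 genes lay between 0.0634 for Tfr2 and 0.974 for Hamp2. For Hamp the sign was opposite, at -0.09, without replicate 2 of WT at CT6.

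**Figure D3:**
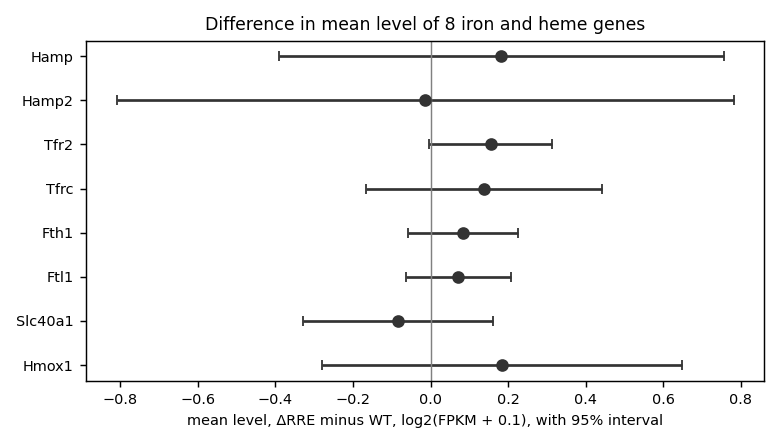
Difference in mean level between ΔRRE and WT (x axis, log2(FPKM + 0.1), ΔRRE minus WT, time point as a factor) for the 8 tested genes. Points are limma estimates and bars 95% intervals; every interval includes 0, from -0.004 to 0.31 for Tfr2 up to -0.81 to 0.78 for Hamp2.

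In a wider list of 71 iron and heme genes, the 9 included, several genes had a called wave and none a called difference between WT and ΔRRE. Of 69 that were tested, 11 (15.9%) had a joint wave, against 18.7% of all genes; without replicate 2 of WT at CT6 there were also 11. In WT 5 were called, against 10.3% of all genes, and in ΔRRE 2, against 4.57%. For mean level and for a difference in wave 0 were called (limma), with an unadjusted p under 0.05 for 5 and 1 of the 69. The median difference in level was 0.03 over the list and 0.04 over all genes tested.

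Among genes of hepcidin regulation, 2 of 19 had a joint wave, Hamp and hemojuvelin (listed as Hfe2), the BMP coreceptor on hepatocytes. Hemojuvelin had an amplitude of 0.32 ± 0.07 (SE), a peak at CT0.40 and an adjusted p of 0.0194 (limma). It was lowest at CT10 in WT, at 23.5 ± 1.48 FPKM (SD, n = 2), and highest at CT2, at 44.8 ± 7.69 FPKM. Tmprss6, the protease that cleaves hemojuvelin, had a mean of 128 FPKM and was not called (adjusted p of 0.150, limma). The BMP target genes Id1, Smad7, Atoh8 and Smad6 had fitted joint peaks at CT17.4, CT16.9, CT22.8 and CT3.17, and none was called (adjusted p of 0.204, 0.612, 0.558 and 0.940, limma). The peak of Id1 was at CT15.1 in WT and CT19.7 in ΔRRE, with neither wave called (adjusted p of 0.290 and 0.279, limma). The difference between these waves had an unadjusted p of 0.232 and an adjusted p of 0.9999 (limma).

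Uptake and plasma transport held 4 of its 13 tested genes with a joint wave, or 30.8% against 18.7% of all genes, which rests on 4 genes and was not tested. Steap3, the endosomal reductase that frees iron taken up with transferrin, had an amplitude of 0.64 ± 0.10 (SE), a peak at CT1.73 and an adjusted p of 0.000213 (limma). Its mean fell from 10.99 ± 0.619 FPKM (SD, n = 2) at CT2 to 3.46 ± 0.664 FPKM at CT14 in WT, and was lowest at CT14 in ΔRRE too, at 5.10 ± 0.103 FPKM. Tfrc, whose cargo Steap3 handles, averaged 13.9 FPKM in WT and 18.3 FPKM in ΔRRE at that time. The amplitude of Steap3 was 0.83 in WT and 0.48 in ΔRRE, with an unadjusted p of 0.0489 and an adjusted p of 0.9999 for the difference (limma). Slc11a2 (DMT1), which moves iron out of the endosome, peaked at CT22.9 (amplitude 0.36 ± 0.06), and Slc39a8 (ZIP8), an importer of iron and zinc, at CT2.56 (0.40 ± 0.04), called in WT and in ΔRRE alone. Steap4, another metalloreductase, peaked at CT12.8 (0.44 ± 0.09). The plasma carriers were far more abundant: transferrin (Trf) had a mean of 4307 FPKM and hemopexin (Hpx) of 2798 FPKM, and neither was called (adjusted p of 0.127 and 0.122, limma).

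Heme synthesis held the largest wave of the list. Alas1, the rate-limiting enzyme of heme synthesis in liver, had an amplitude of 1.58 ± 0.19 (SE) with a peak at CT13.7 and was called in WT and in ΔRRE alone. In WT its 6 libraries of CT10 to CT18 lay between 178 and 395 FPKM and the 6 others between 26.2 and 134 FPKM. In ΔRRE the same times lay between 137 and 384 FPKM and the others between 26.8 and 60.7 FPKM, without overlap in either genotype. This window too was picked after the values were seen and was not tested. Of 16 genes in this role, 2 had a joint wave. The other was Fech, which inserts iron into the ring, with an amplitude of 0.14 ± 0.03. Slc25a28, a mitochondrial iron importer, was called in WT alone (adjusted p of 0.0413, limma). Pgrmc1, the most abundant with 614 FPKM, was not called.

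In storage, release and sensing 2 of 10 genes had a joint wave. Ceruloplasmin (Cp), the ferroxidase that helps load transferrin, had an amplitude of 0.22 ± 0.06 and a peak at CT4.64, and its level was 0.26 ± 0.08 (SE) higher in ΔRRE with an unadjusted p of 0.00309 and an adjusted p of 0.343 (limma). The 12 acute-phase genes, all detected, summed to between 3581 and 6890 FPKM in WT, with a median of 4821, and to between 3901 and 12695 FPKM in ΔRRE, with a median of 6106; their part in the Cp level was not tested. Aco1, which encodes iron regulatory protein 1, had an amplitude of 0.15 ± 0.04 and an adjusted p of 0.0496, while Ireb2, which encodes iron regulatory protein 2, was at 0.0510 (limma). Pcbp2, an iron chaperone, was not called, with a mean of 103 FPKM. In heme breakdown, export and sensing 1 of 11 had a joint wave, the heme exporter Flvcr1 (0.43 ± 0.12, peak at CT16.3, mean of 1.15 FPKM). Ugt1a1, which conjugates bilirubin, and Blvrb, a biliverdin reductase, had means of 267 and 72.6 FPKM and were not called.

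**Figure D4:**
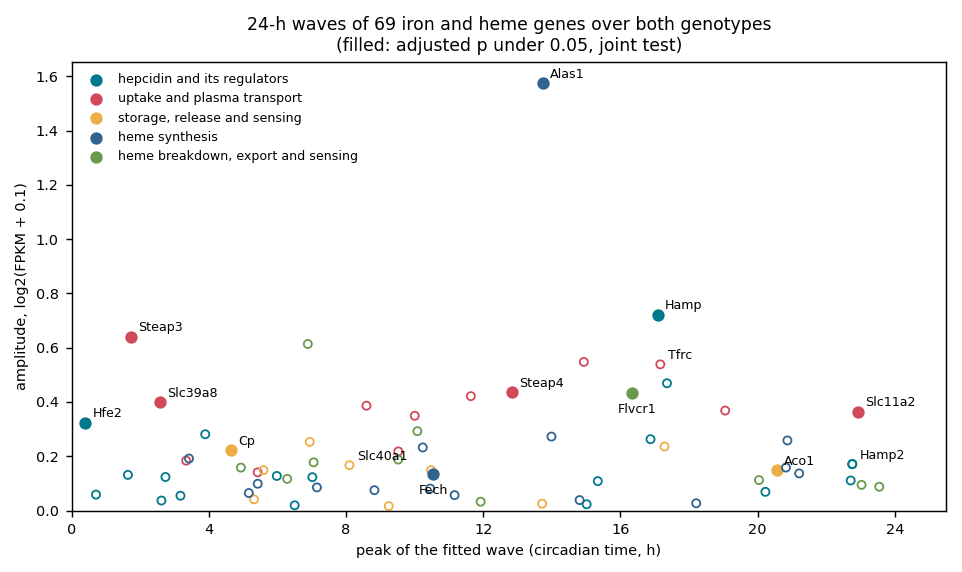
Amplitude (y axis, log2(FPKM + 0.1)) against peak time (x axis, circadian time in hours) of the fitted 24-h wave over both genotypes for the 69 tested iron and heme genes, coloured by role. Filled points had an adjusted p under 0.05 in the joint test (11 of 69) and open points did not. Alas1 stands highest with 1.58. Hamp (0.72) and Tfrc (0.54, not called) have fitted peaks near CT17. By the time means Hamp was highest at CT14 and Tfrc at CT18.

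Of the 11 called genes, Hfe2, Slc11a2, Slc39a8, Steap3 and Alas1 kept their call under all 33 alternatives run, with adjusted p-values of up to 0.0458 (limma). The calls of the 6 others were lost with time point as a factor and with no filter on low values, and also when single libraries were left out. Besides Hamp, this held for Cp without replicate 1 of ΔRRE at CT18 (adjusted p of 0.0625), for Steap4 without replicate 1 of ΔRRE at CT2 or CT14 (up to 0.0531), for Flvcr1 in 9 of 24 such fits, and for Aco1 and Fech in 20 each (limma).

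The genes most like each tested gene over the 24 libraries were named by Pearson r on the log2 scale, as a description of libraries that share time points and scaling. For Tfrc they were Copg1, a coat protein of Golgi vesicles, with r = 0.892, and Rpl7l1 with 0.889. For Slc40a1 they were Nr2f2 with 0.7997 and Ehmt2 with 0.798. For Fth1 they were Tmem98 with 0.819 and Tm6sf2 with 0.782, for Tfr2 Rabggtb with 0.749 and Pcx with 0.683, for Hamp2 Ndufb4 with 0.757 and Fxyd1 with 0.723, and for Hamp the pseudogene Gm9826 with 0.735 and Plekhg2 with 0.721. For Ftl1 the next after Gm22133 was its copy Ftl1-ps1 with 0.742.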

How the data were processed

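RNA-seq was performed on 24 mouse livers, 2 per genotype (WT or ΔRRE) and circadian time. Poly(A) RNA was selected and strand-marking libraries were sequenced as read pairs. The authors deposited FPKM per gene for each library separately, without pooling. According to the submitters' processing notes, reads were trimmed with Trimmomatic 0.39, aligned to mm10 with HISAT2 2.1.0 and quantified with StringTie 1.3.5. A table of the whole series repeated the same values and was not used. The handling of reads that fit several genes is not given in the sources used here, and FPKM gives no read counts, so count tests were not run.

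Groups follow genotype and time in the labels. No pair of libraries shared more than 0.0380% of its non-zero values. log2(FPKM + 0.1) was computed for genes averaging 1 FPKM or more (11244) and fitted with limma 3.58.1 (R 4.3.3, prior with intensity trend). A cosine and sine of 24 h were tested in each genotype, in both together (4 terms), and for a difference between genotypes. The amplitude and peak given with the joint test come from a fit of 1 wave shared by both genotypes. Mean level was tested with time point as a factor. Calls are Benjamini-Hochberg adjusted p-values under 0.05 over all genes. The steps were tested on simulated data. Exact permutation tests (two-sided) exchanged genotype labels within time points. The study's rhythm criteria were applied with the harmonic p under 0.3, since BIO_CYCLE was not run. Alternatives changed the pseudocount (1 or 0.01 FPKM), the filter (none or 5 FPKM), library scaling, prior, replicate block, wave shape or spread, or left out 1 library. The count over the 71 genes under each alternative, and the permutation tests without 1 library, were added after the data were seen.

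The 9 genes, the list of 71 iron and heme genes in 5 roles and the marker lists were chosen with earlier results of these data known. The text names the 9 genes, listed genes called in any test, the 2 most abundant others of each role and the 2 genes most like each tested gene, with values for the BMP targets Id1, Smad6, Smad7 and Atoh8 and for Ncoa4 and Ireb2 chosen after they were seen. The same holds for the single acute-phase genes given for replicate 2 of WT at CT6. Promoters came from RefSeq (GRCm38.p6, the build of mm10) and transcripts from GENCODE M21. Python 3.11.15, NumPy 2.4.6, pandas and matplotlib 3.10.9 were used.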

Additional observations from a re-analysis of the deposited data

Results flagged for a closer look

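The difference between the Hamp waves of WT and ΔRRE was singled out because the exact permutation test of that difference gave an unadjusted p of 0.0231, the only one of the 9 genes under 0.05. The waves differed by 0.92 on the log2 scale (amplitude 1.16 in WT and 0.33 in ΔRRE). Without replicate 2 of WT at CT6 the difference was 0.41 with a permutation p of 0.104, and limma across all genes gave an adjusted p of 0.9999 with all 24 libraries. Groups of 2 libraries were too small for either library to be called an outlier within its own group.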

How the results depend on the processing

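The report's values rest on FPKM without read counts and on 2 libraries per group. With no filter on low values 519 genes were called in WT, 197 in ΔRRE, 0 of the 9 genes and 5 of the 71 in the joint test, and 0 genes for a difference in wave. That difference was also called for 0 genes with a pseudocount of 0.01 FPKM, a filter of 5 FPKM or a prior without trend, and for 4 with time point as a factor. With time point as a factor 361 genes were called in WT, 1087 jointly, 7 of the listed genes jointly and 1 of the 9 in ΔRRE (Tfrc). A shared spread called 957 genes in ΔRRE and 1 of the 9 in WT (Hamp). The study's criteria called 4156 genes and 2 of the 9 in WT, and 3985 genes and 3 of the 9 in ΔRRE. A single shared wave called 3437 genes, 23 of the listed and 2 of the 9 (Hamp and Tfrc).

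Leaving out 1 library gave 740 to 1157 genes in WT, 298 to 554 in ΔRRE, 0 to 1 for mean level and 0 to 1 for a difference in wave. It gave 0 to 1 of the 9 genes in WT, 0 to 1 in the joint test and 6 to 15 of the listed genes, with the fewest without replicate 1 of ΔRRE at CT14 and 7 without replicate 1 of WT at CT10 or replicate 2 of WT at CT14. The joint Hamp call was lost without replicate 1 of WT at CT10, CT14, CT18 or CT22, replicate 2 of WT at CT14 or replicate 1 of ΔRRE at CT14. The difference in level turned its sign for Hamp, with values of -0.092 to 0.27, and for Hamp2, with -0.23 to 0.16. The cause of these changes was not tested.

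Same-numbered replicates were not treated as pairs, since not every correlation of their deviations was over 0.1: over 66 pairs of groups it ranged from -0.14 to 0.30 (median 0.067), with 20 over 0.1. In all 12 groups the libraries deviated on average with their own number. With the replicate block 0 genes were called for a difference in wave, and the block changed no other call of the 9 genes. Of 1679 recomputed values of single genes, 1579 kept their direction and side of the threshold, 72 lost and 15 gained a call, and 13 changed sign.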
